A study of Mus musculus with 3 samples.

Results

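CXC chemokines are small secreted proteins that attract leukocytes, and the platelet chemokines *Pf4* and *Ppbp* belong to the same family. The genes described here are *Pf4*, *Ppbp*, *Cxcl2*, and every other listed gene whose symbol is Cxcl or Cxcr followed by digits. The rule uses the symbols, but a gene also had to be listed in a comparison by its p-value, and members were chosen with earlier results of these data known. Of the 1238 different entries listed over the 3 comparisons, 10 met this rule. Of these, 8 encode ligands (*Pf4*, *Ppbp*, *Cxcl1*, *Cxcl2*, *Cxcl5*, *Cxcl13*, *Cxcl14*, and *Cxcl16*) and 2 encode receptors (*Cxcr2* and *Cxcr4*).

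RNA-seq was performed on 3 libraries of suprarenal aorta, 1 per cohort, each a pool of total RNA from several male *apoE* null mice on a C57BL/6 background, whose age at surgery was 12 weeks. The null allele, which makes the animals prone to high plasma cholesterol, was carried by all cohorts. Angiotensin II (AngII) was infused by osmotic pump in the cohorts named AngII AAA and AngII No AAA, which did and did not form a dissecting abdominal aortic aneurysm (AAA), respectively, whereas pumps in the Saline cohort delivered saline. AngII AAA tissue was taken within 24 hours of diagnosis, and tissue of the other cohorts on day 10 after pump implantation. Harvest time and aneurysm status therefore cannot be told apart, and differences between cohorts had no replicate check. No test between cohorts could be made, and the values and their ratios are given as measured.

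CXC ligands act on G protein-coupled receptors of leukocytes. The ligands with a glutamate-leucine-arginine (ELR) motif, among them the products of *Cxcl1*, *Cxcl2*, *Cxcl5*, and, after cleavage, *Ppbp*, act on CXCR2 and draw neutrophils into inflamed tissue, and several are induced through NF-κB in response to microbial products and interleukin-1. The products of *Pf4* and *Ppbp* are stored in platelet alpha granules and released when platelets are activated. Other members have separate roles, as CXCL13 attracts B cells and CXCL16 occurs both as a membrane-bound and as a soluble ligand.

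Levels are in FPKM (fragment counts scaled to transcript length and to library size). A gene was listed for a comparison only where its unadjusted p-value, as deposited, was under 0.05, so that an unlisted gene has no readable value there. Each library enters 2 of the 3 comparisons, which therefore share samples. Past the threshold means a finite ratio of at least 4-fold. Where a level is given on the common scale, the constant by which a library's values differed between comparisons was divided out to reach the scale of AngII AAA vs. Saline. For genes also listed in AngII AAA vs. AngII No AAA, such as *Ppbp* and *Cxcl13*, this step placed AngII No AAA over Saline ratios 0.05 higher on the log2 scale than in their own comparison. For genes not listed there, such as *Cxcl14* and *Cxcl16*, that ratio did not change.

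Of the chemokine genes, 5 lie close together on chromosome 5. Their position is given first because the largest chemokine ratio of each comparison with AngII AAA was found there. In the coordinates of the deposited files (mm9, per the submitters' processing notes), *Cxcl5* was at chr5:91188324-91190651, *Ppbp* at chr5:91197544-91199086, *Pf4* at chr5:91201461-91202409, *Cxcl1* at chr5:91320271-91322141, and *Cxcl2* at chr5:91332925-91334964. These 5 genes spanned 147 kb. *Ppbp* and *Pf4* were separated by 2.37 kb and *Cxcl1* and *Cxcl2* by 10.8 kb, with 118 kb between *Pf4* and *Cxcl1*. In RefSeq (GRCm38.p6), *Cxcl3* and *Cxcl15* lie between *Pf4* and *Cxcl1*, and neither was listed in any comparison. *Cxcl13* was on the same chromosome at chr5:96385958-96390087. The remaining genes were elsewhere, with *Cxcl14* at chr13:56390006-56397912, *Cxcl16* at chr11:70267736-70279701, *Cxcr2* at chr1:74200568-74207820, and *Cxcr4* at chr1:130484776-130488876.

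Promoter sequences from RefSeq (GRCm38.p6) were matched for 8 of the 10 genes, from 250 bases before to 50 bases after the start. The NF-κB-like motif GGNNNTTCC, searched on both strands, was present in 2 of these, *Cxcl1* and *Cxcl2*, and in 18.5% of all 32851 promoters in the table. The bases before the start are shown for both genes, since each held a pair of matches at the same spacing. *Cxcl1* is taken from chr5:90890995-90891244 and *Cxcl2* from chr5:90903649-90903898 of GRCm38.p6, both on the plus strand, and capitals mark the matches on either strand.
*Cxcl1*: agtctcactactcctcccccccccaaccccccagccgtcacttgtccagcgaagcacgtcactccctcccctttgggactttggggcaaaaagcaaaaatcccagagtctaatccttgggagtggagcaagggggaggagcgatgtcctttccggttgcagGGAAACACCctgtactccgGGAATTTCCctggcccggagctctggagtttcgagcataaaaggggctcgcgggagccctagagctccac
*Cxcl2*: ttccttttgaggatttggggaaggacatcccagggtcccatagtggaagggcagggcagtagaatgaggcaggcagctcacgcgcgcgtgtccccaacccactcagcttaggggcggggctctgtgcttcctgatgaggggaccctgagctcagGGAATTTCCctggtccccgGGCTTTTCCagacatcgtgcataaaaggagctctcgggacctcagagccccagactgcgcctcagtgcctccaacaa
The matches began 89 and 70 bases before the start in *Cxcl1* and 96 and 77 bases before it in *Cxcl2*, so that the first letters of the pair were 19 bases apart in both. The letters GGAATTTCC occurred in both genes, as the match nearer to the start in *Cxcl1* and as the one farther from it in *Cxcl2*. The other match, GGAAACACC in *Cxcl1* and GGCTTTTCC in *Cxcl2*, was on opposite strands in the pair of genes. The GATA motif AGATAA was found in 1 of the 8 promoters, that of *Pf4*, and in 11.2% of all promoters, whereas the ETS core GGAA was found in 8 of 8 and in 96.0% of all. GGNNNTTCC always holds GGAA on the opposite strand, so these matches overlap. Promoters of *Ppbp*, *Cxcl13*, *Cxcl14*, *Cxcr2*, and *Cxcr4* held neither GGNNNTTCC nor AGATAA.

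Levels of the CXC and platelet chemokine genes peaked in AngII AAA wherever all levels could be read. On the common scale, 8 of the 10 genes had a value in all 3 libraries, and the AngII AAA library was highest for each of the 8. The listing partly fixed this order. *Cxcl1*, *Cxcl2*, *Cxcl13*, *Cxcr2*, *Pf4*, and *Ppbp* were listed as higher in both comparisons with AngII AAA, so their highest library followed from it. *Cxcl14* and *Cxcl16* were listed as lower in Saline than in both AngII cohorts, which fixed their lowest library. The same share over all entries was not counted. Of the entries listed for the comparisons with AngII No AAA and Saline, 79% and 84.6%, respectively, were higher in AngII AAA. Saline was lowest for 6 of the 8 chemokine genes, and AngII No AAA was lowest for *Ppbp* and *Cxcr2*. The levels of these 8 genes added up to 1441 FPKM in AngII AAA, 149 FPKM in AngII No AAA, and 88.4 FPKM in Saline. *Pf4* alone made up 70.7%, 40.0%, and 55.5% of these sums. Without *Pf4*, the summed level in AngII AAA was still 4.73-fold that in AngII No AAA and 10.7-fold that in Saline. In this bulk tissue, more cells of a type and more RNA per cell cannot be told apart.

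**Figure D1:**
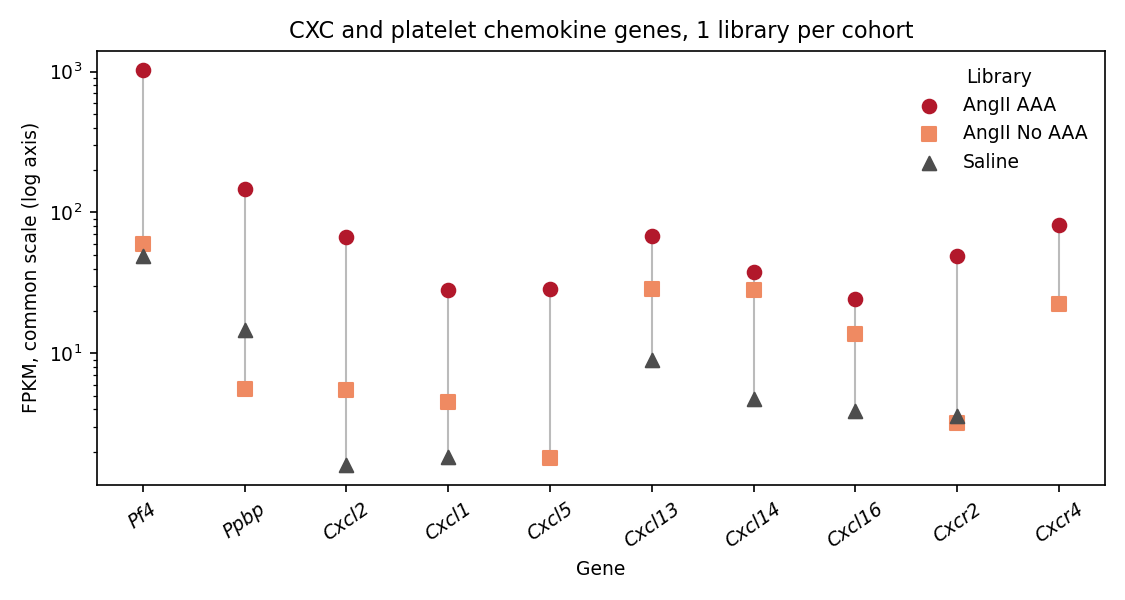
Levels of the 10 chemokine genes in FPKM on the common scale (log axis), with 1 point per library and a grey line joining the lowest and highest library of a gene. *Pf4* at 1018 FPKM in AngII AAA is the highest point, *Ppbp* and *Cxcr2* have their lowest point in AngII No AAA, and *Cxcl5* and *Cxcr4* have no Saline point because they were not listed in a comparison with that library.

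For AngII AAA vs. AngII No AAA, which contrasts infused animals with and without a dissecting AAA, 8 chemokine genes were listed. All 8 were higher in AngII AAA, as were 79% of the 600 listed entries. A ratio of at least 4-fold was reached by 6 of the 8, against 30.7% of the entries, and none was lower by as much, against 4.5%. The median log2 ratio was 3.77 for the chemokine genes (range 1.25 to 4.73) and 1.63 over all entries with a finite ratio. Because members were chosen with earlier results known, such contrasts with all entries, here and below, are a description only.

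*Pf4*, platelet factor 4, was at 985 FPKM in AngII AAA and at 57.7 FPKM in AngII No AAA, a 17.1-fold difference (log2 ratio 4.09). *Ppbp*, the precursor of the platelet basic proteins, was at 142 and 5.37 FPKM, which gave the largest ratio of the family (26.5-fold, log2 ratio 4.73). These ratios ranked 18 and 9, respectively, among 469 finite rises. Both platelet chemokines were thus near the upper end of all listed genes, and the *Pf4* level was also the highest of any chemokine gene here.

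Among the ligands that attract neutrophils, *Cxcl5* was at 27.7 FPKM in AngII AAA and 1.75 FPKM in AngII No AAA (15.8-fold). *Cxcl2* was at 65.3 and 5.35 FPKM (12.2-fold), and *Cxcl1* was at 27.3 and 4.36 FPKM (6.26-fold). Each of these 3 ligand genes passed the 4-fold threshold, and *Cxcl1* had the smallest ratio of them. *Cxcr2*, which encodes the receptor of these ligands on neutrophils, was at 47.6 and 3.13 FPKM (15.2-fold). The receptor gene *Cxcr4*, whose product binds CXCL12, was at 78.6 and 21.7 FPKM (3.62-fold), and *Cxcl13* was at 66.2 and 27.8 FPKM (2.38-fold). These last 2 genes stayed under the threshold.

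For AngII AAA vs. Saline, which contrasts aneurysmal tissue with tissue of animals not infused with AngII, 8 chemokine genes were again listed, though not the same ones, as *Cxcl14* and *Cxcl16* took the places of *Cxcl5* and *Cxcr4*. All 8 were higher in AngII AAA, against 84.6% of the 715 entries, and all 8 reached 4-fold, against 60.3%. None was lower by 4-fold, against 6.71% of the entries. Their median log2 ratio was 3.56 (range 2.64 to 5.39), and that over all entries was 2.26.

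*Cxcl2* had the largest ratio in this comparison, at 67.5 FPKM in AngII AAA and 1.61 FPKM in Saline (41.8-fold, log2 ratio 5.39, rank 10 of 585 finite rises). *Pf4* was at 1018 and 49.0 FPKM (20.8-fold), and *Ppbp* was at 147 and 14.6 FPKM (10.1-fold). The order of the platelet pair was thus opposite to that against AngII No AAA, where *Ppbp* had the larger ratio. *Cxcl1* was at 28.2 and 1.84 FPKM (15.3-fold) and *Cxcr2* at 49.2 and 3.59 FPKM (13.7-fold). *Cxcl14*, which encodes a ligand expressed in many epithelia, was at 38.0 and 4.79 FPKM (7.93-fold), *Cxcl13* at 68.4 and 9.02 FPKM (7.58-fold), and *Cxcl16* at 24.4 and 3.93 FPKM (6.21-fold). The ligands outside the chromosome 5 cluster therefore had the 3 smallest ratios of the 8.

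**Figure D2:**
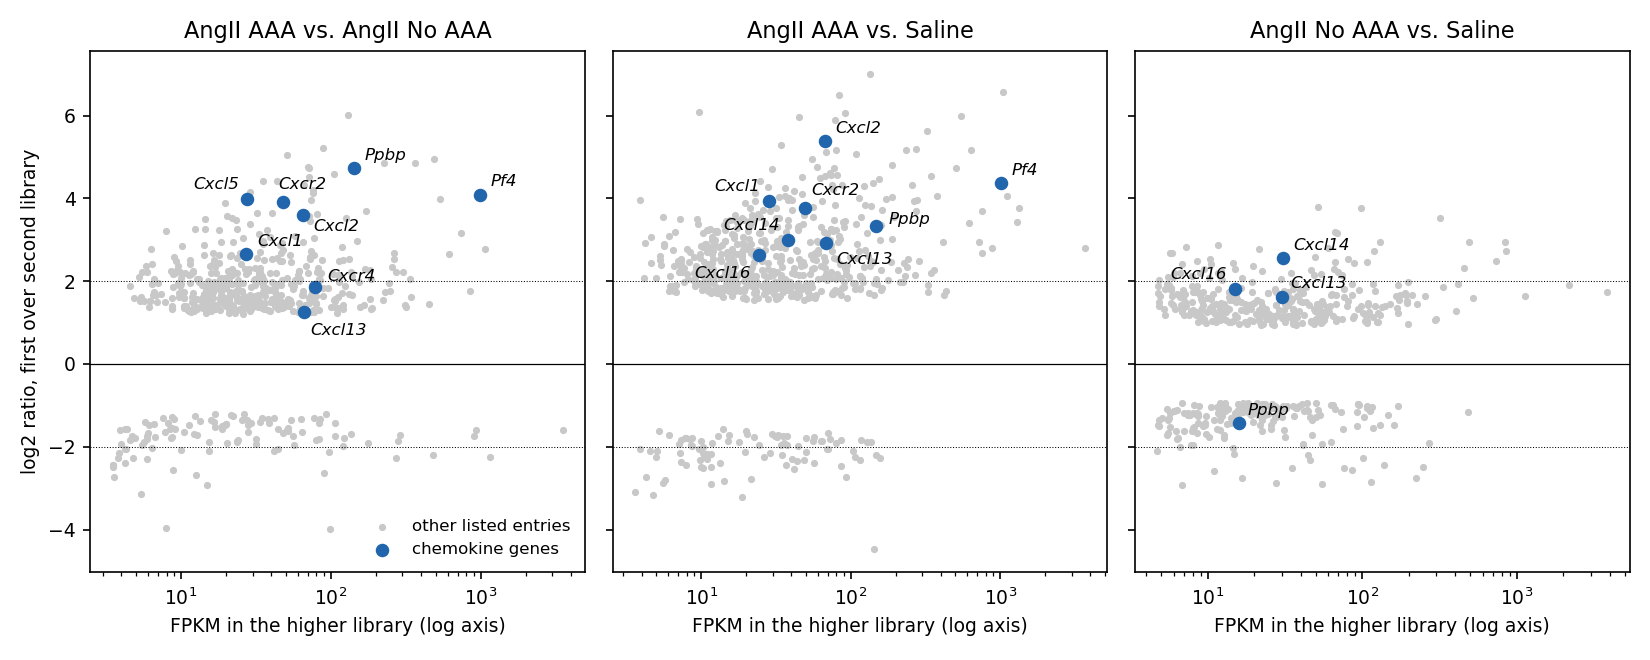
Log2 ratio of every listed entry with a finite ratio against its FPKM in the higher library (log axis), with 1 panel per comparison and dotted lines at 4-fold. Chemokine genes (blue) lie above 4-fold for 6 of 8, 8 of 8, and 1 of 4 genes from left to right, and the empty band around 0 comes from listing only entries with an unadjusted p-value under 0.05.

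For AngII No AAA vs. Saline, which addresses the effect of infusion without a dissecting AAA, only 4 chemokine genes were listed. Of these, 3 were higher in AngII No AAA, against 63.5% of the 564 entries, and 1 was lower. The 4-fold threshold was passed upward by 1 of the 4 (9.57% of the entries) and downward by none (3.37%). *Cxcl14* was at 30.8 FPKM in AngII No AAA and 5.23 FPKM in Saline (5.88-fold), *Cxcl16* at 15.0 and 4.29 FPKM (3.49-fold), and *Cxcl13* at 30.4 and 9.86 FPKM (3.08-fold). *Ppbp* was lower in AngII No AAA, at 5.87 FPKM against 15.9 FPKM in Saline (log2 ratio -1.44). No ligand of the group that attracts neutrophils through CXCR2, apart from *Ppbp*, was listed here.

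The chemokine genes differed in where the AngII No AAA library stood between the others. *Cxcl14* was close to its AngII AAA level, at 28.2 FPKM on the common scale against 38.0 FPKM in AngII AAA and 4.79 FPKM in Saline. *Cxcl16* (24.4, 13.7, and 3.93 FPKM in AngII AAA, AngII No AAA, and Saline) and *Cxcl13* (68.4, 28.7, and 9.02 FPKM) were intermediate. *Cxcl2* (67.5, 5.53, and 1.61 FPKM) and *Cxcl1* (28.2, 4.51, and 1.84 FPKM) were also ordered in this way but lay nearer to Saline. *Pf4* was at 59.7 FPKM in AngII No AAA and 49.0 FPKM in Saline, and *Cxcr2* at 3.23 and 3.59 FPKM, respectively. For these last 2 genes the infused and saline libraries without an aneurysm were almost level, and neither gene was listed for that comparison. *Ppbp* had a different order, at 147 FPKM in AngII AAA, 5.55 FPKM in AngII No AAA, and 14.6 FPKM in Saline. Consequently, the ratio of *Pf4* to *Ppbp* levels was 6.93, 10.8, and 3.37 in the 3 libraries, and that of *Cxcl2* to *Cxcl1* was 2.39, 1.23, and 0.876.

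**Figure D3:**
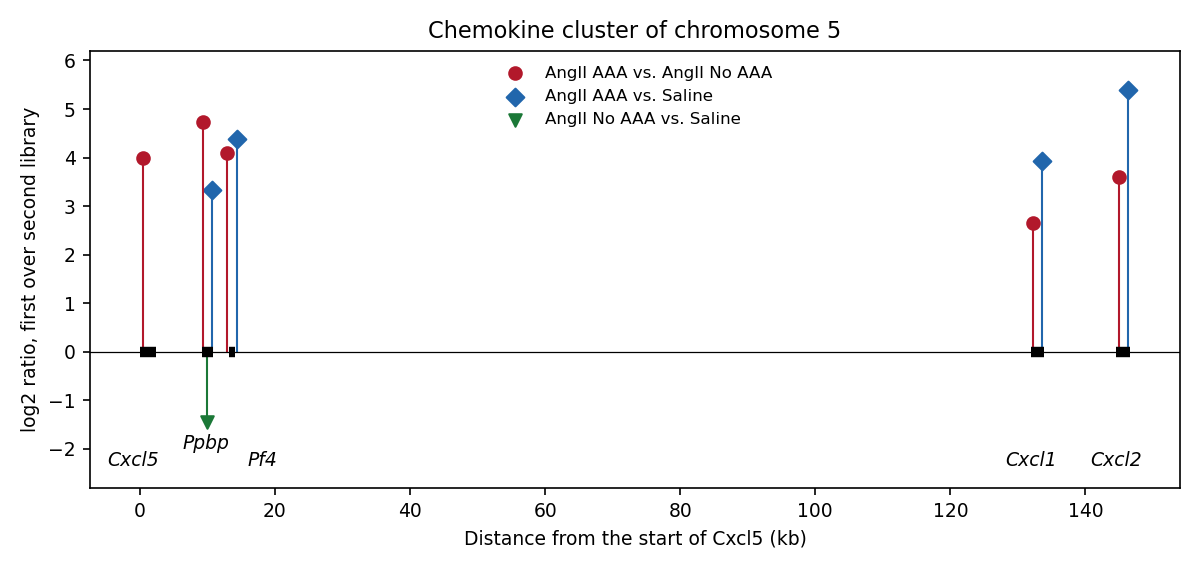
Log2 ratios of the 5 listed genes of the chromosome 5 cluster against distance from the start of *Cxcl5* in kb, where black bars are the gene spans and symbols are set slightly apart for legibility. Ratios involving AngII AAA lie between 2.65 and 5.39 along the 147 kb, and the single AngII No AAA vs. Saline symbol, that of *Ppbp* at -1.44, is the only negative one.

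FPKM values are usually given without the reads behind them, but here ratios of AngII AAA to Saline, multiplied by 3/2, matched fractions of whole numbers for 300 of 677 entries (44.3%), from which read numbers were inferred. This factor matched the most entries of those tried. The next, 3, matched 278 entries and the least successful 153, and in the other comparisons the best factor matched 3.60% and 8.42%. The inferred numbers correspond to 3.43M counted reads in AngII AAA, whereas the labels give 35M to 43M reads per sample, and the cause of this gap was not tested. If the true read numbers were larger, the intervals would be narrower. For *Cxcl1*, *Cxcl2*, *Cxcl13*, *Cxcl14*, and *Cxcl16* the numbers were whole in AngII AAA and Saline, and for the remaining 5 genes they were estimated from FPKM and transcript length. The following read numbers are therefore conditional on this inference. Intervals are exact 95% intervals and cover counting error only, not differences between animals. *Cxcl2* rested on 251 reads in AngII AAA, 28 in AngII No AAA, and 4 in Saline, so that its ratio of 41.8 to Saline had an interval of 16.1 to 155. *Cxcl1* rested on 92, 20, and 4 reads (15.3-fold, interval 5.79 to 57.5). On these numbers, the Saline levels of both neutrophil-attracting ligands had the fewest reads of any chemokine gene value. In contrast, *Pf4* was estimated at 2052, 164, and 66 reads, and its 20.8-fold ratio to Saline had an interval of 16.2 to 26.9. *Ppbp* was estimated at 546, 28, and 36 reads. Its ratio of AngII No AAA to Saline, 0.381 on the common scale, had an interval of 0.224 to 0.642, which lies below 1. *Ppbp* was listed for this comparison by its p-value, so the interval is no separate evidence of a difference between the cohorts. The same ratio for *Pf4* was 1.22 with an interval of 0.909 to 1.65, and for *Cxcr2* 0.901 with an interval of 0.491 to 1.69, both of which include 1. For *Cxcl1* (2.45, interval 0.820 to 9.85) the interval for AngII No AAA over Saline included 1, whereas for *Cxcl2* (3.43, interval 1.20 to 13.5) the interval lay above 1. Neither gene was listed for that comparison, and the Saline value of each rested on 4 reads. *Cxcl14* at 1.35-fold between AngII AAA and AngII No AAA had an interval of 1.12 to 1.62, and it was not listed for that comparison either. Because the intervals cover counting error only, an interval that excludes 1 does not show a difference between the cohorts.

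Platelet, neutrophil, and macrophage markers also differed between the libraries, and their values are given beside those of the chemokine genes. Of 14 platelet markers, the comparison of AngII AAA with AngII No AAA listed 8 and that with Saline listed 6, each of them higher in AngII AAA, with median log2 ratios of 2.60 and 2.37. Over all entries, 79% and 84.6% were higher in AngII AAA, with medians of 1.63 and 2.26, and these shares and medians are the background for the other marker lists as well. Between AngII No AAA and Saline, *Nrgn* and *Tubb1* were the 2 listed platelet markers, both lower in AngII No AAA (log2 ratios -1.72 and -1.31), as was *Ppbp*. The 7 platelet markers with all values added up to 382 FPKM in AngII AAA, 40.5 FPKM in AngII No AAA, and 84.0 FPKM in Saline, and 5 of the 7 were lower in AngII No AAA than in Saline. *Gp9*, a subunit of the platelet receptor for von Willebrand factor, was at 75.4, 6.86, and 11.3 FPKM, and *Clec1b*, which encodes the platelet receptor CLEC-2, was at 29.7, 2.85, and 6.35 FPKM. The other 2, *Plek* (37.1, 6.55, and 4.77 FPKM) and *Gp1ba* (16.5, 3.14, and 3.04 FPKM), were higher in AngII No AAA than in Saline. For *Gp1ba* those 2 libraries were almost level. No platelet marker was listed at 0 in any library. The order of the libraries for the 5 markers lower in AngII No AAA was that of *Ppbp*, and the share of all entries with this order was not counted. Of these 5, *Itga2b* was almost level, at 2.24 FPKM in AngII No AAA and 2.41 FPKM in Saline. Only *Nrgn* and *Tubb1* were listed for AngII No AAA vs. Saline. *Pf4* was almost level between those libraries (59.7 and 49.0 FPKM) and was not listed there, so its order relative to these markers is not settled. Of 20 genes for alpha granule proteins, which include both platelet chemokines, 7, 9, and 4 were listed, with median log2 ratios of 3.17, 3.34, and 1.94, and each was higher in the first cohort except *Ppbp* in AngII No AAA relative to Saline. *Thbs1* (thrombospondin 1) was at 256, 75.7, and 12.7 FPKM and *Srgn* (serglycin, which holds granule proteins) at 758, 84.4, and 58.2 FPKM. Both values were therefore higher in AngII No AAA than in Saline, unlike *Ppbp*, but only *Thbs1* was listed for that comparison.

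Of 14 neutrophil markers, 7 were listed in each comparison with AngII AAA, all higher in that library, with median log2 ratios of 4.72 and 4.77. *Lcn2*, which encodes an iron-binding granule protein, was the only one listed for AngII No AAA vs. Saline (log2 ratio 3.20). *S100a8* (504, 16.4, and 18.9 FPKM) and *S100a9* (377, 13.1, and 22.5 FPKM), the calprotectin genes, had lower values in AngII No AAA than in Saline, whereas *Csf3r* (109, 4.50, and 3.21 FPKM), *Mmp8* (44.9, 2.09, and 0.712 FPKM), and *Lcn2* had higher ones. Of these 5 genes, *Lcn2* alone was listed for the comparison of those libraries. *Stfa2l1* was listed at 0 in both libraries without an aneurysm. Of 12 monocyte and macrophage markers, 9 were listed in each comparison with AngII AAA and 6 for AngII No AAA vs. Saline, all higher in the first cohort. Over the 9 markers with all values, the sums were 1807, 315, and 129 FPKM, and all 9 were higher in AngII No AAA than in Saline, with a median log2 ratio of 1.27. This median was near that of all entries listed for AngII No AAA vs. Saline (1.16), of which 63.5% were higher in AngII No AAA. *Lyz2* (lysozyme) was at 1109, 161, and 66.9 FPKM and *Cd68*, a lysosomal marker, at 279, 59.2, and 18.0 FPKM. The order of these markers was that of *Cxcl1*, *Cxcl2*, *Cxcl13*, *Cxcl14*, *Cxcl16*, and *Pf4*, and the share of all entries with this order was not counted. Of these chemokine genes, *Cxcl1*, *Cxcl2*, and *Pf4* were not listed for AngII No AAA vs. Saline, and *Pf4* was almost level there. The part of any of these cell types in the chemokine values was not tested.

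**Figure D4:**
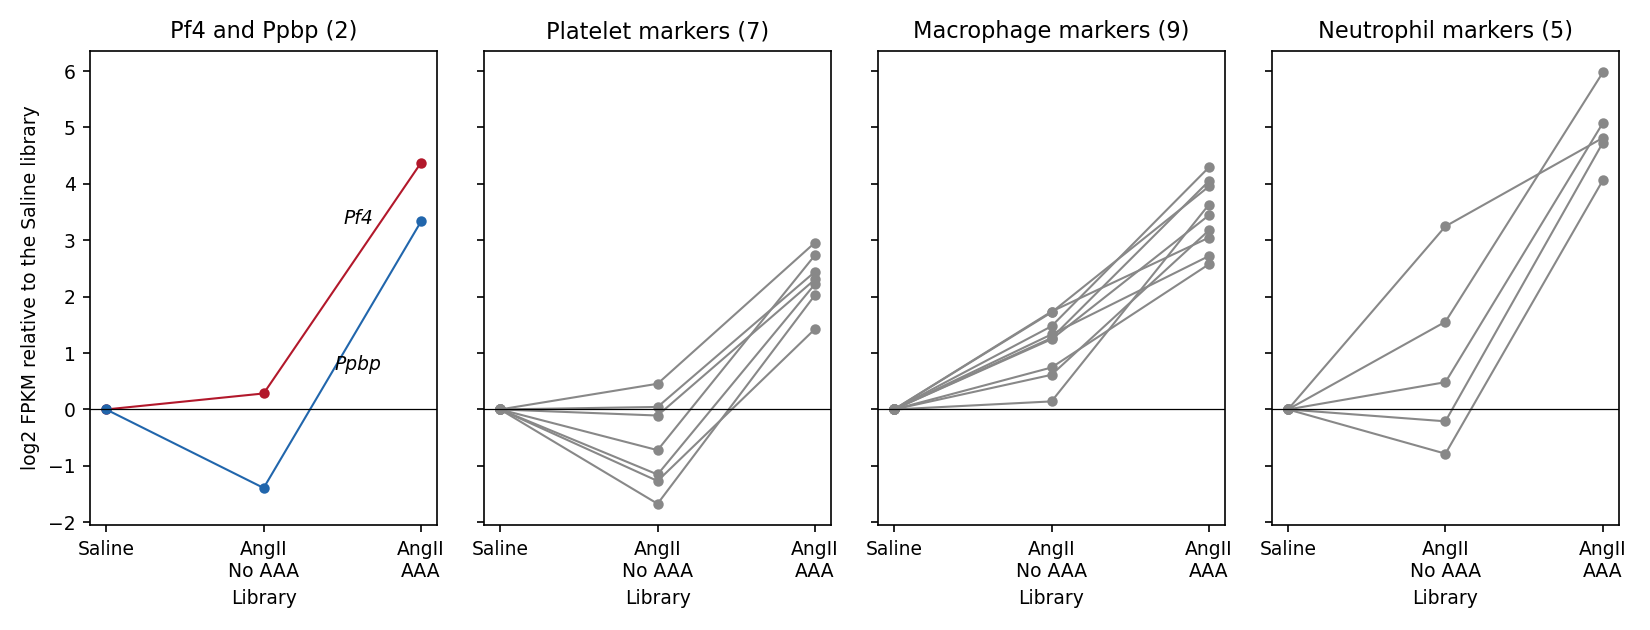
Log2 FPKM relative to the Saline library (common scale) in the 3 libraries for *Pf4* and *Ppbp* and for the 7 platelet, 9 macrophage, and 5 neutrophil markers with values above 0 in every library, where each line is 1 gene. Platelet markers dip for 5 of 7 genes in AngII No AAA, as *Ppbp* does, whereas all 9 macrophage markers lie above Saline there.

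Blood and neighboring tissue varied as well. The 4 listed erythrocyte markers added up to 1176 FPKM in AngII AAA, 1059 FPKM in AngII No AAA, and 210 FPKM in Saline, and the comparison of the AngII cohorts listed none of them. Adrenal cortex markers, of which 5 had all values, added up to 440, 13.8, and 10.4 FPKM. Smooth muscle markers, which define the aortic media, were present in the libraries where listed, with *Acta2* at 314 FPKM in AngII AAA and 956 FPKM in AngII No AAA, and 5 of 8 were listed as lower in AngII AAA. Skeletal muscle markers were lower in both AngII cohorts than in Saline for 5 and 6 of 8 genes. Of the remaining markers, 1 of 7 endothelial, 3 of 6 fibroblast, 2 of 4 B cell, and 0 of 6 T cell genes were listed in any comparison. The B cell receptor genes *Cd79a* (13.4, 3.22, and 2.30 FPKM) and *Cd79b* (21.9, 3.57, and 3.28 FPKM) were more than 4-fold higher in AngII AAA than in the other libraries, beside *Cxcl13*, which encodes a B cell attractant. None of these lists was tested for a part in the chemokine levels.

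Counts for the wider CXC pathway are read against all listed entries, of which 79% were higher in AngII AAA than in AngII No AAA and 84.6% higher than in Saline. Of 15 CXC ligand genes, 7 (*Cxcl3*, *Cxcl9*, *Cxcl10*, *Cxcl11*, *Cxcl12*, *Cxcl15*, and *Cxcl17*) were listed in no comparison, including the interferon-inducible ligands of CXCR3. None of *Cxcr1*, *Cxcr3*, *Cxcr5*, or *Cxcr6* was listed, nor was any of 7 atypical chemokine receptors, which bind chemokines without G protein signaling. Of 24 genes for signaling below the receptors, 14, 14, and 3 were listed (in AngII AAA over AngII No AAA, in AngII AAA over Saline, and in AngII No AAA over Saline, respectively), all higher in the first cohort (median log2 ratios 1.76, 2.47, and 1.53). Over all entries, the corresponding medians were 1.63, 2.26, and 1.16. *Rac2*, a small GTPase of leukocyte migration, was at 63.3, 13.2, and 6.33 FPKM, and *Arrb2*, an arrestin that desensitizes chemokine receptors, at 67.8, 19.9, and 13.6 FPKM. Of 21 genes for inducers of the neutrophil-attracting ligands and their receptors, 6, 10, and 3 were listed, all higher in the first cohort (median log2 ratios 2.03, 1.93, and 1.20). *Tlr13*, an endosomal receptor for bacterial RNA, was at 34.1, 3.84, and 0.870 FPKM, and *Cd14*, a coreceptor for lipopolysaccharide, at 88.7, 19.3, and 8.15 FPKM. Of 17 leukocyte adhesion genes, 8, 10, and 3 were listed, all higher in the first cohort (median log2 ratios 2.36, 2.31, and 1.47 over finite values). *Itgam*, the integrin chain CD11b, was at 74.9, 12.9, and 3.73 FPKM, and *Glycam1*, a ligand of L-selectin, was at 34.7 and 7.47 FPKM and listed at 0 in Saline.

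Among 532 entries with values in all libraries, the genes whose pattern lay nearest to that of *Pf4* were *Mmp9*, *Slfn4*, *Cyp11b1* (one of the adrenal cortex markers), *Clec4n*, and *Ccl2*, at distances of 0.101 to 0.479 (Euclidean distance of the log2 levels in the 3 libraries after centering on their mean). *Mmp9*, which encodes a gelatinase, was at 76.1, 4.85, and 3.99 FPKM. Nearest to *Ppbp* were *S100a9*, *Ccl2*, *Cyp4f18*, *Hist1h2bb*, and *Mc2r*, at distances of 0.553 to 0.873, and nearest to *Cxcl2* were *Tlr13*, *Ms4a6d*, *Clec4d*, *Spp1*, and *Ccl7*, at 0.342 to 0.478. No gene lay as close to *Ppbp* as the 5 named for *Pf4* lay to *Pf4*. With 3 libraries, these distances only describe which levels were alike.

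Sequence shared with other genes could divide reads between them. Of all 50-base stretches in GENCODE M21 transcripts of a gene, 5.84% of those of *Cxcl2* also occurred in *Cxcl3*, its neighbor in the cluster. The effect of this on the *Cxcl2* value was not measured, and the level of *Cxcl3* could not be read. The shares were 4.01% for *Cxcr2* and 0.693% for *Cxcl5*, and the other 7 genes had no shared stretch.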

How the data were processed

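Reads from 3 pooled suprarenal libraries (35M to 43M per sample, per the labels) were processed by the authors with FastQC (read quality), HISAT2 (alignment), and Cufflinks (assembly). Versions are not given in the sources used here, and mm9 is the build in the submitters' processing notes. The authors deposited FPKM values of both libraries from 1 Cuffdiff run per comparison, and each deposited p-value was under 0.05 in all 600, 715, and 564 entries. The deposited columns of log2 fold change, test statistic, adjusted p-value, and significance hold the authors' own comparisons and were not used.

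Members and gene lists were chosen with earlier results of these data known. Log2 ratios were computed from FPKM with no pseudocount, and a ratio of at least 4-fold counted as past the threshold. The constants dividing libraries between runs were 1.03, 1.09, and 1.09 (medians over 385, 102, and 227 shared entries). The genes named are all members, up to 5 per list (those listed in the most comparisons, then at the highest FPKM), and the 5 nearest patterns for *Pf4*, *Ppbp*, and *Cxcl2*. *Stfa2l1* and *Acta2* are mentioned for a value at 0 and for the aortic media. *Gp1ba* and *Itga2b* are mentioned as platelet markers almost level between AngII No AAA and Saline. Alternatives were a pseudocount of 1 FPKM, thresholds of 2-fold and 8-fold, at least 1 FPKM in the higher library, single-gene entries only, entries at 0 counted, no constant, and another source of the AngII No AAA value.

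Recovery of read numbers was chosen after seeing the data. AngII AAA over Saline ratios multiplied by 3/2 were fractions of whole numbers for 300 entries. The worth of 1 read in AngII No AAA was then fitted so that the most entries came out whole, which gave 103 of 192. This share is a result of the fit and not a check of it. Lengths of the first GENCODE M21 transcript gave multiples of the lowest terms, with 1 read on 1 kb worth 0.292, 0.214, and 0.438 FPKM in AngII AAA, AngII No AAA, and Saline. Exact binomial (Clopper-Pearson) intervals at 95% were taken on these numbers. The common scale, the threshold counts, the matching of whole numbers, and the worth of 1 read were tested on simulated data. The fit for AngII No AAA, the choice of multiples, and the intervals were not. Deposited coordinates count starts from 0 and were written 1-based. The ELR motif in protein sequences was not analysed here. Python 3.11.15, pandas 2.3.3, numpy 2.4.6, and matplotlib 3.10.9 were used.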

Additional observations from a re-analysis of the deposited data

Results flagged for a closer look

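*Ppbp* differed from Saline in opposite directions in the AngII cohorts. Its log2 ratio to Saline was 3.34 in AngII AAA and -1.44 in AngII No AAA, whereas *Cxcl13*, *Cxcl14*, and *Cxcl16*, the other chemokine genes listed in both comparisons, were higher in both. The difference between the ratios was not tested, because each cohort had 1 library and both comparisons use the same Saline library. By the inferred read numbers, the AngII No AAA value rested on about 28 reads and the Saline value on about 36.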

How the results depend on the processing

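Of 101 values recomputed under another setting, 95 moved by less than 1.5 times, 6 moved by more, and 0 changed direction. Many of these could not have moved, so the tally is no measure of robustness. The constants were at most 1.09, which kept 29 values without a constant, 10 from another source, and 6 rebuilt from the other comparisons under 1.5 times. Settings for entries at 0, single-gene entries, and 1 FPKM (6 values each) left out or added no member. A pseudocount cannot reverse a ratio. With a threshold of 8-fold, 5 of the 8 chemokine genes were past it for AngII AAA vs. Saline, and 0 were past it for AngII No AAA vs. Saline. With a threshold of 2-fold, AngII No AAA vs. Saline had 3 genes past it upward and 1 downward (*Ppbp*). A pseudocount of 1 FPKM lowered the log2 ratio of *Cxcl2* between AngII AAA and Saline to 4.71 and that of *Cxcl5* between the AngII cohorts to 3.39. No paired analysis was possible because each cohort had 1 library, and leaving out a library would remove a cohort. By the inferred read numbers, which imply fewer reads than the labels give, the Saline levels of *Cxcl1* and *Cxcl2* rested on the fewest, 4 each.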

Other observations

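One read on a transcript of 1 kb was worth 0.292 FPKM in the AngII AAA library, as in a library of 3.43M counted reads, while the labels give 35M to 43M reads per sample. This value comes from 63 entries with recovered read numbers and a single transcript, of which 10 lay within 2% of that worth and 10 within 2% of 2 reads. FPKM here was scaled by Cuffdiff for each comparison, and the cause of the gap was not tested.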
